A study of Mus musculus with 8 samples.

Results

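The nuclear factor I genes Nfia, Nfib, Nfic and Nfix were examined in maps of open chromatin from cerebellar granule neuron progenitors (GNPs) with and without the chromatin remodeller Chd7. Members were all ATAC-seq peaks that overlapped the body of 1 of these 4 genes or the 20 kb on either side of it (mm10, GENCODE M21). The rule used positions alone and no measured value. It found 460 peaks among 434365 in 3 peak lists: 166 of 152984 in the wild-type (WT) list, 117 of 106974 in the heterozygous (het) list and 177 of 174407 in the mutant list. ATAC-seq uses the Tn5 transposase to insert adapters into accessible DNA, so that a peak marks a stretch of open chromatin.

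GNPs were taken from the cerebella of mice of the strain labelled C56Bl6/J at postnatal day 7. WT cells carried floxed Chd7 alleles without Cre [Chd7 f/f], het cells had a single floxed allele and Atoh1-Cre [Atoh1-Cre::Chd7 f/+], and mutant cells were the homozygous counterpart [Atoh1-Cre::Chd7 f/f]. The short names are those of the labels, and the alleles are those the study gives for its GNPs. Cre was driven by Atoh1, which is active in the granule lineage, and the study describes recombination in the posterior lobe as probably less efficient. There were 3 WT, 3 mutant and 2 het libraries. The study calls the WT and mutant replicates technical, and the number of animals behind each library is not given in the sources used here.

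Nfi proteins are DNA-binding factors that recognise a palindrome made of the site TTGGC and its reverse complement GCCAA, and bind a single TTGGC more weakly. They act as dimers, and the 4 genes encode closely related proteins. In the cerebellum, Nfi factors are known for driving the late steps of granule neuron maturation, such as migration, dendrite formation and the switch to the genes of mature synapses. Nfia and Nfib also act in the formation of glia and of forebrain commissures, Nfix in neural stem cells and in muscle, and Nfic in tooth roots.

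The lists were called on the pooled libraries of each genotype, so there was 1 value per peak and genotype, with no replicate error and no test. After filtering, 50394313 WT, 51030229 mutant and 30923002 het tags were left. Peak height is given below as pileup, the number of extended tags over the summit, and as normalised height, the pileup per 1000000 tags. Peak strength is the -log10 q of the peak caller, and its rank is the percentage of peaks of the same list that were equally strong or weaker. The het list was made from another alignment with a longer tag extension, so its tags are given as deposited and are not compared with the others, and its genotype and processing cannot be told apart. Start sites of all 7 progenitor genes checked (Atoh1, Barhl1, Gli1, Gli2, Mycn, Zic1 and Pax6) held a peak in each list, the tallest of them summing to 7.94 per 1000000 tags in WT and 8.43 in mutant. Of 9 genes checked that mark other cerebellar cell types, 5 had a start site peak in each list (Calb1, Gfap, Aqp4, Cldn5 and Pecam1). Their sums were 2.34 in WT and 2.47 in mutant, while Pcp2, Mog, Cx3cr1 and Aif1 had none. The tallest of these, at the Purkinje cell gene Calb1, reached 0.893 in WT and 0.901 in mutant. That was above the progenitor gene Barhl1, with 0.714 and 0.568, so these peaks do not measure how pure the cells were. The Chd7 deletion itself was not checked, since the deleted part was not located here.

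The first sequences show what the most accessible DNA of each gene looked like. Each is 200 bases around the summit of the tallest WT peak of that gene that lay outside exons and away from the start sites of other genes. Capitals mark the Nfi site TTGGC or its complement, and all sequences are the plus strand of GRCm38.
Nfia, upstream of the first start site, chr4:97772204-97772403: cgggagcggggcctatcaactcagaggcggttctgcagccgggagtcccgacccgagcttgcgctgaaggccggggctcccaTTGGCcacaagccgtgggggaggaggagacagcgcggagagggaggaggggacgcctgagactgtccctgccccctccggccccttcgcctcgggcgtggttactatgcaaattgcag
Nfib, intron, chr4:82513193-82513392: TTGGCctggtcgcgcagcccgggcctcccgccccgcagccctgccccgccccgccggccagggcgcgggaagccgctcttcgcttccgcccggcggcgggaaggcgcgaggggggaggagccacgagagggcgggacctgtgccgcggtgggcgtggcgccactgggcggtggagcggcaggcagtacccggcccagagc
Nfic, intron, chr10:81432963-81433162: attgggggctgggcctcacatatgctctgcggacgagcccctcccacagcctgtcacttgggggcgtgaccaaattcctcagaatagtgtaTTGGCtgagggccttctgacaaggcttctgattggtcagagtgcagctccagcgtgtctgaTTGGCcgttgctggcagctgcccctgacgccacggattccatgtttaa
Nfix, intron, chr8:84793907-84794106: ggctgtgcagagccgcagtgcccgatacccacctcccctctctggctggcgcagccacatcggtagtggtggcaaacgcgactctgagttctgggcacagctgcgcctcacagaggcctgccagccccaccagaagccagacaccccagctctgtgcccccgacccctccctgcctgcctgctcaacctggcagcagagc

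The Nfia stretch held 1 TTGGC, the Nfib stretch 1, the Nfic stretch 2 and the Nfix stretch none. GC content was 68.5%, 80.5%, 57.5% and 67.5% in the same order. The Nfic and Nfix stretches each held 1 copy of CAGCTG, an E-box of the kind bound by basic helix-loop-helix factors.

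A second pair of sequences, both from introns of Nfia, is shown because the WT and mutant lists differed there. The former was the strongest WT peak in any of the windows to lack a mutant peak, and the latter was the peak whose height fell most in mutant.
Nfia, peak in WT and het lists alone, chr4:97950805-97951004: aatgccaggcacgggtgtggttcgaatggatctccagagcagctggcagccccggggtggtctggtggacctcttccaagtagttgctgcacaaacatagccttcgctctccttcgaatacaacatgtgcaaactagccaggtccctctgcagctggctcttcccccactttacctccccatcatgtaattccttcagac
Nfia, most lowered in mutant, chr4:98023459-98023658: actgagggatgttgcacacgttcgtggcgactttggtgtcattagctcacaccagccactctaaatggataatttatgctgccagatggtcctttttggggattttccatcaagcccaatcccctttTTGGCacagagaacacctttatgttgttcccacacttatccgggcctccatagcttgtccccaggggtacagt

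The former contained 2 copies of CAGCTG and no TTGGC, with a GC content of 55%. The latter contained 1 TTGGC and 1 copy of the E-box CAGATG, with a GC content of 49%.

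Nfib had the most peaks of the family. It lies on chromosome 4 from 82290173 to 82705750 on the minus strand (ENSMUSG00000008575.17) and its window held 73 WT, 50 het and 69 mutant peaks. Nfia, on chromosome 4 from 97772734 to 98118874 on the plus strand (ENSMUSG00000028565.18), held 43 WT, 32 het and 54 mutant peaks. The shorter genes held fewer: Nfix, on chromosome 8 from 84699876 to 84800344 on the minus strand (ENSMUSG00000001911.16), had 29 WT, 20 het and 32 mutant peaks. Nfic, on chromosome 10 from 81396186 to 81455635 on the minus strand (ENSMUSG00000055053.18), had 21 WT, 15 het and 22 mutant peaks.

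Among 21951 protein-coding genes ranked by WT peaks in the same kind of window, Nfib was at place 47, Nfia at 203, Nfix at 514 and Nfic at 917. The order turned when peaks were counted per length. Nfic had 2.11 WT peaks per 10 kb and Nfix 2.06, against 1.60 for Nfib and 1.11 for Nfia, and the median of protein-coding genes was 0.696. By this density the places were 313 for Nfic, 358 for Nfix, 1461 for Nfib and 4981 for Nfia. All 4 windows were thus denser in peaks than that of the median gene. These counts include peaks at start sites of other genes: 7 of 29 for Nfix, 4 of 21 for Nfic, 2 of 73 for Nfib and 1 of 43 for Nfia. Densities without them were not computed, so the turned order holds for the windows and not for the Nfi genes alone.

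Most window peaks were intronic, a majority that the rule favours because gene bodies fill most of the windows. The body spans 346 of 386 kb for Nfia and 416 of 456 kb for Nfib. It spans 100 of 140 kb for Nfix and 59.45 of 99.45 kb for Nfic. The share expected from length was not computed. Of the 166 WT peaks, 124 (74.7%, Wilson 95% confidence interval 67.6 to 80.7%) had their summit in an intron of the Nfi gene and away from any start site. A further 18 lay within 1 kb of an Nfi start site, 14 within 1 kb of the start site of another gene, 2 in an exon, 5 in the upstream flank and 3 in the downstream flank. Start sites of any gene were near 32 peaks (19.3%), against 16.4% of all WT peaks. A -log10 q of 10 was reached by 36.7% of the window peaks in WT, as by 36.7% of all WT peaks. In mutant the share was 40.1%, against 36.7% of all mutant peaks. The median -log10 q was higher in the windows, 7.81 against 6.66 in WT and 7.48 against 6.73 in mutant.

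**Figure D1:**
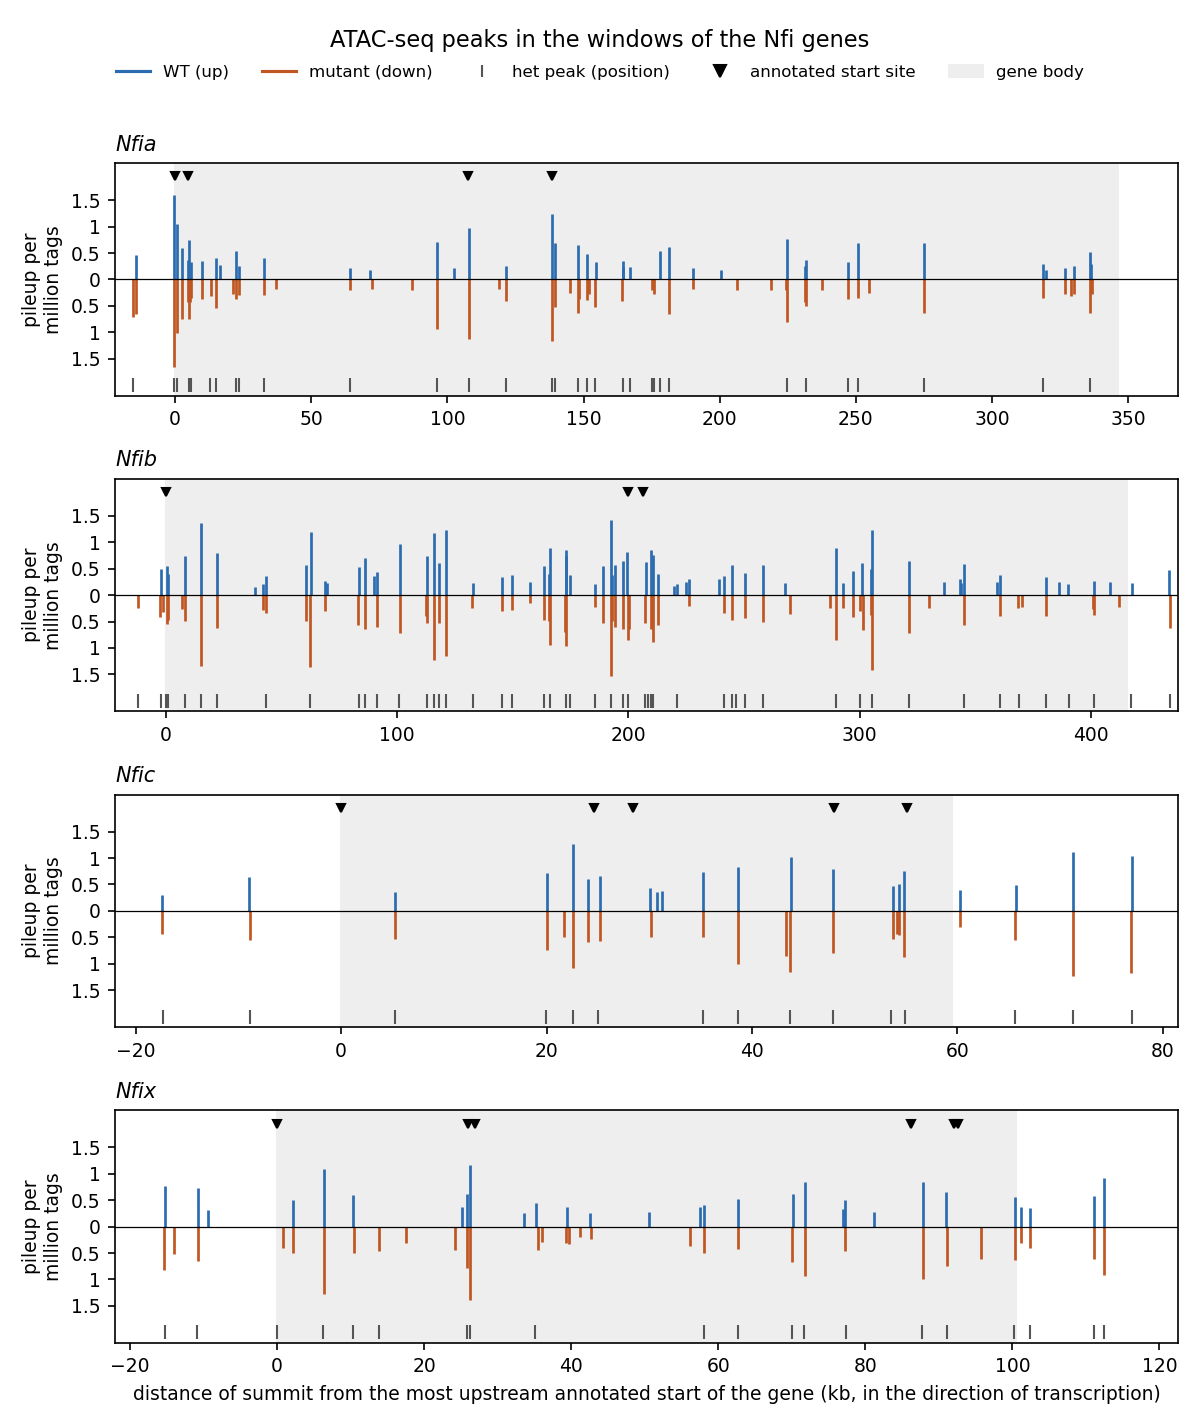
Height of each peak (pileup per 1000000 tags) against the distance of its summit from the most upstream annotated start of Nfia, Nfib, Nfic or Nfix (kb, in the direction of transcription), with WT upward, mutant downward and ticks for het peaks. Tall peaks stand opposite each other in WT and mutant along all 4 genes, and peaks without a partner reach at most 0.536 in WT and 0.607 in mutant.

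Peaks at the start sites were read next. Annotated starts of the 4 genes within 500 bp of each other were joined, which gave 18 sites, 12 of them with a protein-coding transcript. Counting peaks by their summit, one lay within 1 kb of 9 of these 12 in WT, 10 in het and 10 in mutant.

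Nfia was open at all 4 of its start sites in each list. The peak at its most upstream start was the tallest of the family, with 81 tags in WT, 85 in mutant and 114 in het. It lay at 97772022 to 97772573 in WT, with its summit 430 bp from the start site, and had a rank of 97.9 in the WT list and 97.9 in the mutant list. Its log2 ratio of mutant to WT height was 0.05 (exact 95% interval -0.40 to 0.51, which covers counting of tags only). The second start site, where 5 coding transcripts begin and the non-coding gene E130114P18Rik begins nearby, had 38 tags in WT and 38 in mutant. An inner start at 97880119 had 49 tags in WT and 58 in mutant, a log2 ratio of 0.23 (-0.35 to 0.80). The start of a transcript without a coding label at 97911033 had 62 tags in WT and 59 in mutant, a log2 ratio of -0.09 (-0.63 to 0.45). None of the 4 sites differed between WT and mutant beyond counting error.

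RefSeq places a further Nfia start at 97581943, outside the window of the GENCODE gene. The tallest peak with its summit within 1 kb of it had 45 tags in WT, 43 in mutant and 58 in het. Promoter entries in that table matched 3 of the 4 genes, and Nfib is named only. The RefSeq starts of Nfix at 84780082 and 84772875 and of Nfic at 81427173 had no such peak in any list. That of Nfix at 84775828 had 19 tags in WT and 23 in mutant, in different places, and no het peak. That at 84773410 had 59, 71 and 73 in WT, mutant and het.

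Nfib was open around the start of its main transcripts. A single broad WT peak of 2010 bp, at 82505256 to 82507265, covered the site where 10 transcripts begin, 6 of them coding. Its height was 41 tags in WT, 43 in mutant and 56 in het, and the log2 ratio of mutant to WT was 0.05 (-0.60 to 0.70). The tallest peak of the gene, at 82513098 to 82513601, was 7514 bp from the nearest annotated start. It had 72 tags in WT and 78 in mutant, a log2 ratio of 0.10 (-0.38 to 0.58). The start of the longest transcript at 82705750 had 28 tags in WT and 28 in mutant. Near a further start without a coding label, at 82499316, a shared peak at 82498043 to 82498573 had 32 tags in WT and 27 in mutant, a log2 ratio of -0.26 (-1.06 to 0.52). Its summit was within 1 kb of the start in mutant and het, and 1.196 kb away in WT.

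Nfix showed 1 dominant peak at its inner promoter, from 84773899 to 84774294, within 1 kb of both starts there. Its height was 59 tags in WT, 71 in mutant and 73 in het. The log2 ratio of mutant to WT was 0.25 (-0.27 to 0.77), so the difference was within counting error. At the outermost start, shared by 3 coding transcripts around 84800344, the WT list had no summit within 1 kb, and mutant and het had 21 tags each in different places. The mutant peak there was weak, with a -log10 q of 4.32. The 3 starts of Nfix transcripts without a coding label had no summit within 1 kb in any list. The start at 84708218 was closest to one, since a shared peak at 84708877 to 84709489, with 33 tags in WT and 38 in mutant, had its WT summit 1.105 kb away.

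Nfic was open at its inner starts alone. Peaks of 40 WT and 41 mutant tags lay at the start at 81407641. A pair of peaks flanked the start at 81431005 in WT and in mutant, and the het list had 1 peak. The peak at 81430301 had 33 WT and 29 mutant tags, and that at 81431542 had 30 and 30. The strongest start site peak by -log10 q, at 81400559 to 81400943, had 38 tags in WT and 45 in mutant and belonged to a transcript without a coding label. No list had a peak within 1 kb of the site around 81427187, where 3 coding transcripts begin, or of the outermost start at 81455635. The nearest WT summits were 1.59 kb and 5.27 kb away. A missing peak means that none passed the q-value cutoff of 0.05, and the lists give no value below it.

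**Figure D2:**
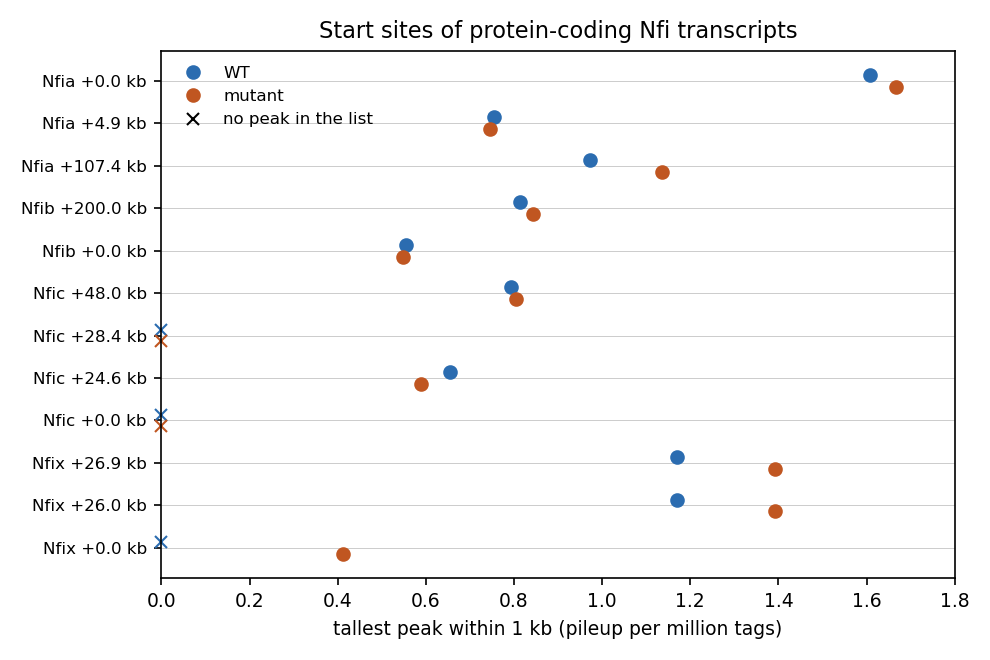
Height of the tallest peak with its summit within 1 kb of each start site of protein-coding Nfi transcripts (pileup per 1000000 tags), named by its distance from the most upstream start of the gene, with crosses where a list had no peak. WT and mutant points lie close at each site where both had a peak, from 0.549 to 1.67 per 1000000 tags, and the inner Nfix starts, 2 rows served by the same peak, show the widest gap. At the Nfic start at 81431005 the tallest peak was not the same one in WT and in mutant.

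Whether loss of Chd7 removed or added open sites was asked by overlap of the lists, where 1 shared base counted. Among the 166 WT peaks, 34 lacked a mutant partner (20.5%, 15.04 to 27.3%), against 22.8% of all WT peaks. Among the 177 mutant peaks, 38 lacked a WT partner (21.5%, 16.1 to 28.1%), against 30.7% of all mutant peaks. The share of WT peaks without a partner was close to the background. The share of mutant peaks without a partner was below it, with its whole interval. That interval treats neighbouring peaks as independent and leaves out differences between libraries, so it is not a test.

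By gene, the share lay furthest below the background in Nfic and Nfib. In Nfib 11 of 69 mutant peaks were unpartnered (15.9%, 9.14 to 26.3%) and Nfic had 1 of 22 (4.55%, 0.807 to 21.8%), both with intervals below the background. Nfia had 17 of 54 (31.5%, 20.7 to 44.7%) and Nfix had 9 of 32 (28.1%, 15.6 to 45.4%), near the background. The intervals of Nfia and Nfib overlapped. In the other direction, unpartnered WT peaks numbered 8 of 43 for Nfia (18.6%), 17 of 73 for Nfib (23.3%), 7 of 29 for Nfix (24.1%) and 2 of 21 for Nfic (9.52%), and each interval held the background.

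**Figure D3:**
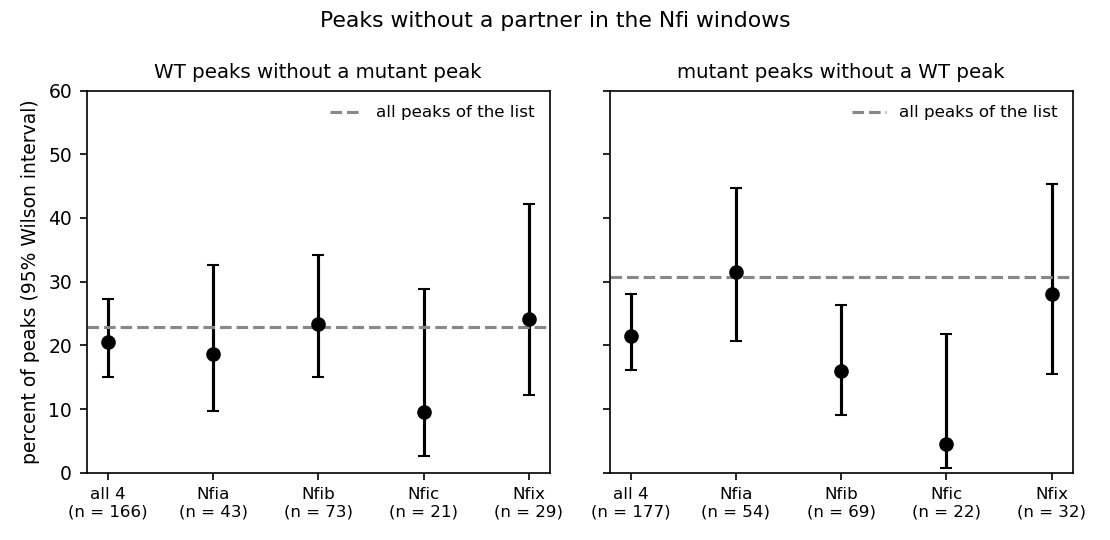
Percentage of peaks without a partner in the other list, for WT peaks against the mutant list (left) and mutant peaks against the WT list (right), in the windows of all 4 genes and of each, with Wilson 95% intervals over peaks and the share of the whole list as a dashed line. On the right, the points for all 4 genes (21.5%), Nfib (15.9%) and Nfic (4.55%) lie below the line at 30.7% with their intervals.

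Peaks in 1 list alone were weak. Their median -log10 q was 3.41 in WT and 3.30 in mutant, against 9.43 and 10.01 for those with a partner. Below a -log10 q of 5, 31 of 57 WT peaks (54.4%) lacked a mutant partner, against 50.7% over the whole list. Between 5 and 10, 2 of 48 did (4.17%, 1.15 to 13.98%), against 13.5%. In mutant, 33 of 56 peaks below 5 were unpartnered (58.9%, 45.9 to 70.8%), against 63.7%, and 5 of 50 between 5 and 10 (10%, 4.35 to 21.4%), against 25.1%. Among 61 WT peaks at or above 10 on this scale, 1 lacked a mutant partner (1.64%, 0.290 to 8.72%), against 0.456%. Among 71 mutant peaks of that strength, 0 lacked a WT partner, which allows a share of up to 4.23%, against 1.21%. Counting any WT peak within 300 bp as a partner gave 0 of 71 again, against 1.12%.

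The single strong exception was the Nfia intron at 97950796 to 97950978, whose sequence is shown above. It had 27 tags in WT, a -log10 q of 12.98 and a rank of 70.8. The het list had a peak of 24 tags with a rank of 35.8 there, and the mutant list had none within 300 bp, as was true of 0.417% of WT peaks of this strength over the whole list. The site was 178.2 kb downstream of the most upstream Nfia start.

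The strongest unpartnered WT peaks of the other genes were weaker. That of Nfib at 82615793 had 18 tags and a -log10 q of 6.35, that of Nfix at 84742751 had 19 tags and 3.91, and that of Nfic at 81424401 had 19 tags and 3.54, and all were intronic. The strongest mutant peaks without a WT peak within 300 bp were intronic as well. The Nfix peak at 84704560 led with 31 tags and a -log10 q of 8.03. The Nfib peak at 82435813 had 18 tags and 6.22, the Nfia peak at 98101854 had 16 tags and 4.70, and the Nfic peak at 81433882 had 25 tags and 3.79. The het list had no peak at any of these sites.

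The height of peaks found in both lists changed little. Over the 132 shared peaks, the median log2 ratio of mutant to WT height was 0.05 (95% interval of the median over peaks -0.02 to 0.09), beside 0.08 over all 118098 shared peaks. Tag size was 107 bp in WT and 76 bp in mutant, and its part in the heights was not tested. Their summed height was 79.6 per 1000000 tags in WT and 81.5 in mutant. Of these peaks, 60 were lower in mutant by any amount (45.5%), against 42.4% of all shared peaks. Peaks with equal tags in both lists count as lower here, since the mutant list had more tags. The ratios ran from -0.98 to 0.74 on the log2 scale.

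By gene the medians were 0.07 for Nfia over 35 peaks, -0.02 for Nfib over 56, 0.15 for Nfic over 19 and 0.08 for Nfix over 22. Nfib was the member with more lowered than raised peaks, 31 against 25. Its lowered peaks include those with equal tags in both lists, and its median is the ratio of such a peak. At least 1.5-fold lower in mutant were 3 of the 132 shared peaks, against 3.61% of all shared peaks. At least 1.5-fold higher were 4 of the 132, against 8.37%. Both shares were below the background, and this was not tested. The 3 lower peaks were 1 in Nfia and 2 in Nfib, and all 4 higher peaks were in the Nfia window. Among the 77 shared peaks that reached a -log10 q of 10 in either list, 1 was lower by this much (background 3.88%) and 4 were higher (background 10.1%).

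**Figure D4:**
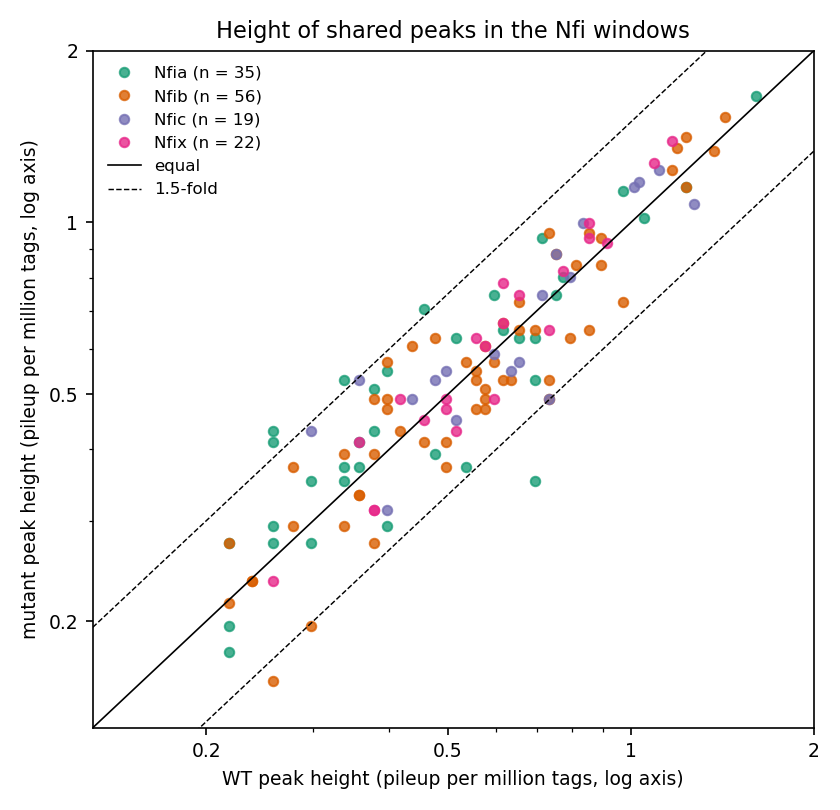
Mutant against WT height of the 132 peaks shared by both lists in the Nfi windows (pileup per 1000000 tags, both axes logarithmic), 1 point per peak, with lines for equal height and for a 1.5-fold difference. The tall peaks follow the line of equal height, and the lowest green point to the right is the Nfia intron with 35 tags in WT and 18 in mutant.

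The peak most lowered in mutant was the second Nfia intron site shown above, at 98023430 to 98023865. It had 35 tags in WT and 18 in mutant, and ranks of 83.1 and 50.9 in these lists. The het list had a peak of 27 tags there with a rank of 52.7 in its own list, which does not place het between the others. The log2 ratio of mutant to WT was -0.98 (-1.88 to -0.12), the only named ratio whose counting interval did not include 0. The peak was picked as the most lowered of 132 shared peaks, and the interval makes no allowance for that choice. It therefore does not set this peak apart from counting error. Next among shared peaks that reached a -log10 q of 10 in either list came an Nfib intron at 82697146 to 82697461 and an Nfic exon at 81420301 to 81420559, each with 37 tags in WT and 25 in mutant, and each with a log2 ratio of -0.58 (-1.38 to 0.19). Both weaker Nfib introns past 1.5-fold were at 82548354, with 13 tags in WT and 8 in mutant (log2 ratio -0.72, -2.195 to 0.66), and at 82479447, with 15 and 10 (-0.60, -1.92 to 0.65). The Nfib intron at 82697146 held the single copy of the Gli site GACCACCCA found near the summits of the family.

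The 3 most raised peaks among the strong ones were all Nfia introns. At 98003792 to 98003963 the tags were 13 in WT and 22 in mutant, a log2 ratio of 0.74 (-0.31 to 1.85). At 97894200 to 97894411 they were 13 and 21, a log2 ratio of 0.67 (-0.39 to 1.79). At 97926890 to 97927253 they were 17 and 27, a log2 ratio of 0.65 (-0.28 to 1.62). The most lowered and the most raised peak thus lay in introns of the same gene.

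The other tall peaks differed little. In Nfib, the intronic peak at 82690196 to 82690761 had 69 tags in WT and 68 in mutant, and that at 82399828 to 82400469 had 62 and 72. In Nfic, the tallest peak, at 81432944 to 81433191, had 64 tags in WT and 55 in mutant, a log2 ratio of -0.24 (-0.78 to 0.31). In Nfix, the intronic peak at 84793829 to 84794972 had 55 and 65, and that at 84712310 to 84712719 had 43 and 51. In Nfia, a second peak near the first start, at 97773236 to 97773502, had 53 and 52. The counting interval of each of these ratios included 0.

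**Figure D5:**
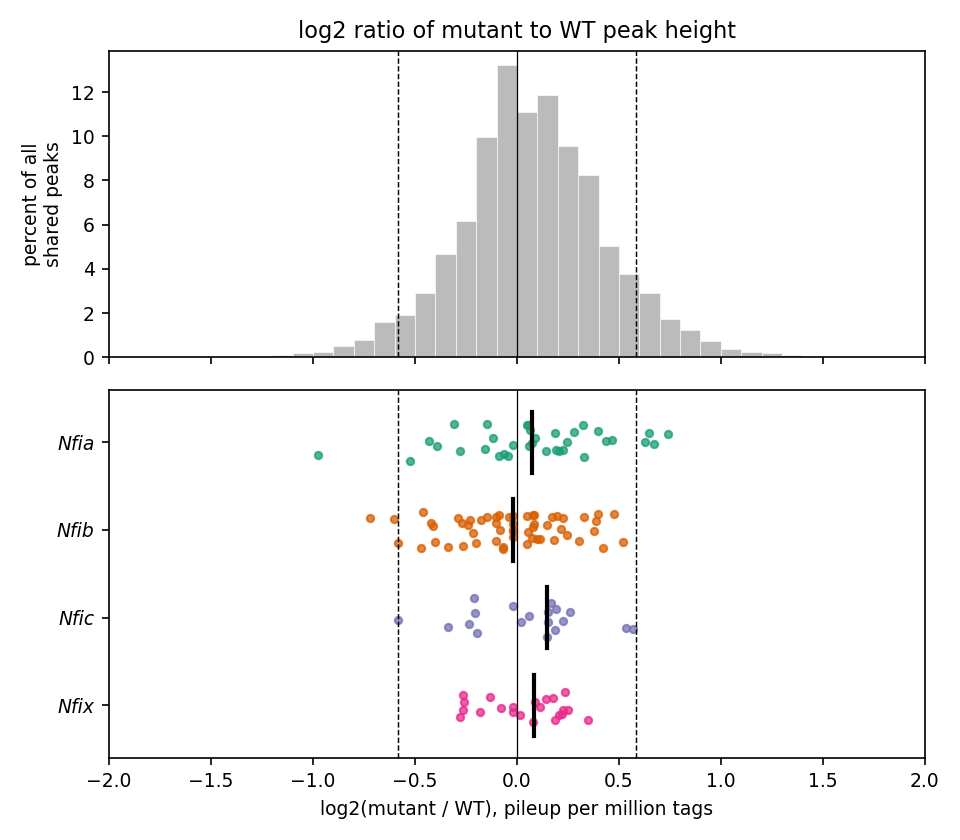
Distribution of the log2 ratio of mutant to WT height over all 118098 shared peaks (top, percent of peaks per bin) and the ratios of single peaks of Nfia, Nfib, Nfic and Nfix (bottom, bars are medians), with dashed lines at a 1.5-fold difference. The medians lie between -0.02 and 0.15, close to 0.08 for all shared peaks, and 3 points lie beyond the left line and 4 beyond the right.

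Het cells were compared with both. Of the 166 WT peaks, 111 had a het peak (66.9%, 59.4 to 73.6%), against 63.1% of all WT peaks. Of the 177 mutant peaks, 118 had one (66.7%, 59.4 to 73.2%), against 58.7%. Of the 117 het peaks, 107 had a WT peak (91.5%), against 86.7%, and 108 a mutant peak (92.3%), against 89.3%. Het peaks were at 7 of the 34 WT peaks and 8 of the 38 mutant peaks that lacked a partner in the WT or mutant comparison. The same counts were not made over the whole lists, so whether these are unusual cannot be told.

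Where all 3 lists had a peak, the het rank lay between the WT and mutant ranks for 23 of 104 WT peaks (22.1%), against 23.6% over the whole list. The numbers were 7 of 27 for Nfia, 4 of 43 for Nfib, 7 of 16 for Nfic and 5 of 18 for Nfix. Het ranks were lower in general, with a median of 55.0 against 69.4 in WT and 71.2 in mutant, a difference also found over the whole list (58.8 against 69.5 and 73.5). A rank is relative to its own list, and the het list was the shortest, with 106974 peaks against 152984 and 174407. Ranks of different lists are therefore not on the same scale, and the counts of het ranks between the others do not order the genotypes.

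Joining peaks of the 3 lists within 300 bp of each other gave 186 regions in the windows. All 3 lists shared 97 of them (52.2%, 45.0 to 59.2%), against 45.7% of 190582 regions in the series. Regions of the mutant list alone numbered 27 (14.5%, 10.2 to 20.3%), against 20.1%, and regions of the WT list alone 23 (12.4%, 8.38 to 17.9%), against 13.3%. Regions of WT and het without mutant numbered 6 (3.23%, 1.49 to 6.86%), against 1.66%, and regions of het and mutant without WT 7 (3.76%, 1.83 to 7.56%), against 3.03%. Nfic had the largest shared part, 14 of 19 regions (73.7%, 51.2 to 88.2%), and 40 of 80 were shared for Nfib, 26 of 53 for Nfia and 17 of 34 for Nfix.

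Sequence around the 166 WT summits was searched in 300 bp on both strands. The full Nfi palindrome, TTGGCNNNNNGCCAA, was found near 0 of 166, which allows a share of up to 1.81%, against 0.114% of 152982 WT peaks. The single site TTGGC was found near 109 (65.7%, 58.2 to 72.5%), against 58.1%. By gene it was near 26 of 43 peaks for Nfia, 51 of 73 for Nfib, 14 of 21 for Nfic and 18 of 29 for Nfix. Median GC content was 52.3% around these summits and 50% around all, and its part in the difference was not tested.

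The E-box CAGCTG was near 36 summits (21.7%, 16.1 to 28.6%), against 28.6%, and the E-box CAGATG, preferred by Atoh1 among others, near 58 (34.9%, 28.1 to 42.5%), against 34.8%. The Gli site GACCACCCA, through which hedgehog signalling acts, was near 1 (0.602%), in Nfib, against 0.388%. A match of letters is not evidence that a factor was bound.

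Genes linked to the Nfi family, as targets or as factors that act with or before it, gave 66 WT, 45 het and 69 mutant peaks in their own bodies and flanks, 8 genes in all. Among the WT peaks 16 lacked a mutant partner (24.2%, against 22.8% of all WT peaks), and among the mutant peaks 15 lacked a WT partner (21.7%, against 30.7% of all mutant peaks). The 50 shared peaks had a median log2 ratio of 0.08, with 2 at least 1.5-fold lower in mutant and 6 at least 1.5-fold higher. Over all shared peaks the shares past 1.5-fold were 3.61% and 8.37%.

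Gabra6, a GABA-A receptor subunit of mature granule neurons, was the gene in this list where every shared peak, 3 of 3, was lower in mutant. Their median log2 ratio was -0.39, and the start site peak went from 0.357 to 0.255 per 1000000 tags, a log2 ratio of -0.49. None of the 3 reached 1.5-fold, and their ratios ran from -0.49 to -0.12. Over all shared peaks 42.4% were lower in mutant by any amount, so 3 of 3 in 1 gene picked from 8 does not set Gabra6 apart. Counting intervals were not made for the genes of this list. Wnt7a, a ligand that shapes synapses, went the other way, with 4 shared peaks all higher and a median of 0.28. Nfatc4, a calcium-regulated factor, had a median of 0.23 over 7 peaks, 2 of them at least 1.5-fold higher. The adhesion gene Cntn2 had a median of -0.01 over 8 peaks, with 1 at least 1.5-fold lower (log2 ratio -0.81). Efnb1, an ephrin, had 2 of 6 shared peaks at least 1.5-fold higher. Etv1, an ETS factor of maturing granule cells, had a tall start site peak of 2.004 per 1000000 tags in WT and 1.94 in mutant. Among its 10 shared peaks, 1 was at least 1.5-fold lower (log2 ratio -0.89) and 1 at least 1.5-fold higher (0.79). Grin2c, a subunit of mature NMDA receptors, had a median of -0.10 over 9 peaks. Sox9, a factor upstream of Nfia in gliogenesis, had a start site peak of 1.45 in WT and 1.35 in mutant.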

How the data were processed

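ATAC-seq libraries from P7 GNPs were grouped by the Chd7 genotype in the labels as WT (3), mutant (3) and het (2). The processing notes of the submitters name Trim Galore 0.4.1, Picard 1.139, MACS2 2.1.0.20150731 and either STAR 2.5.0b (WT, mutant) or Bowtie 1.0.0 (het). The authors pooled the libraries of a genotype and called its list at a q-value cutoff of 0.05, per the file headers. Reads were extended to a modelled 90 bp for WT and 88 bp for mutant, without a shift, and to 200 bp with a shift for het. The study's methods give the shifted setting for ATAC-seq as a whole. Tags were 76 bp long in mutant and 107 bp in the other lists.

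The deposited signal is the pileup at the summit, a whole number of tags that was not scaled to depth. The authors also deposited a fold enrichment (the ratio of pileup to local background), a -log10 p-value, which was not used, and a -log10 q. Pileup was divided here by tags after filtering. For a WT peak the tallest overlapping mutant peak was its partner. No group was missing for any column (0 columns).

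GENCODE M21 (35325 coding and long non-coding genes) gave gene bodies, and RefSeq's GRCm38 gave sequences, after 21 chromosomes were compared and 0 peaks ran past an end. Locations were read at the summit. Wilson intervals and exact conditional intervals of pileup ratios cover counting only, and PCR copies, neighbouring peaks and differences between libraries are not in them. No test was made. Named for each gene were its strongest start site peak, its 3 tallest other WT peaks and its strongest WT and mutant peaks without a partner within 300 bp. Over all genes, the 3 most lowered and 3 most raised shared peaks that reached a -log10 q of 10 in either list were named. The members, the 8 related genes and the motifs were chosen with earlier results of these data known. The marker genes of cell types were added after the lists were seen. Overlap code was tested on simulated intervals. Calculations used python 3.11.15, numpy 2.4.6, pandas 2.3.3 and scipy 1.17.1.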

Additional observations from a re-analysis of the deposited data

How the results depend on the processing

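Among the recomputed values, 35 stayed within the spread set for them and 18 moved. The alternatives were the gene body alone, the gene body with 5 kb on each side (peak counts only), a stricter strength limit, equal list length, a reciprocal overlap of 50%, joining within 300 bp, fold enrichment in place of pileup, centring on all shared peaks, and leaving out peaks at start sites of other genes. At a -log10 q of at least 5 the WT windows held 109 peaks, and with lists cut to their 80230 strongest peaks they held 92 in WT and 89 in mutant, so that mutant no longer had more. At the stricter limit, unpartnered WT peaks fell to 2.75% (5.78% over the whole list), unpartnered mutant peaks to 4.13% (11.2%), and peaks with a het peak rose to 87.2% for WT (84.2%) and 85.95% for mutant (79.3%). With a reciprocal overlap of 50% the same shares were 31.9%, 36.2%, 57.2% and 54.8%, against 35.9%, 43.8%, 50.1% and 45.5% over the whole lists. Under each setting run for it, the unpartnered share of mutant peaks stayed below that of the whole list. The median log2 ratio of mutant to WT height was -0.020 after centring, where it changed sign. Peaks at least 1.5-fold lower in mutant numbered 1 at the stricter limit for both peaks, 1 by fold enrichment and 6 after centring. Those at least 1.5-fold higher numbered 2 with reciprocal overlap, 1 by fold enrichment and 2 after centring, so that after centring more peaks were lower than higher by this much. Centring subtracts the median of all shared peaks, 0.075, from each ratio, so the shifts after centring follow from that step. The stricter limits leave fewer peaks by construction. The cause of the other shifts was not tested. No paired analysis was possible because each list was called on pooled libraries, and leaving out a replicate could not be run for the same reason. Depth limits the height ratios, since the counting interval of 37 against 25 tags, a 1.5-fold difference, includes no change.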

Other observations

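The windows also held start sites of neighbouring genes, which are not part of the Nfi genes. In the Nfic window, the peak at the start of Dohh, an enzyme that completes hypusine in a translation factor, had 56 tags in WT, 63 in mutant and 91 in het. The peak at Fzr1, an activator of the anaphase-promoting complex, had 52, 60 and 92, and that at Celf5, an RNA-binding protein gene, had 15, 22 and 15. In the Nfix window, the peak at Nacc1 had 46 tags in WT, 47 in mutant and 58 in het. The tallest of the peaks at Trmt1, a tRNA methyltransferase gene, had 29 tags in WT, 31 in mutant and 34 in het.

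Non-coding genes near or inside the Nfi genes gave smaller peaks. The start of Gm12676, upstream of Nfia, had 23 tags in WT and 36 in mutant, a log2 ratio of 0.63 (-0.17 to 1.45), and this was 1 of the 4 peaks that were at least 1.5-fold higher in mutant. Gm11266, close to the main Nfib start site, had 33 tags in both lists, and Gm11267 had 31 in WT and 27 in mutant. These values are from 1 list per genotype and were not tested.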
